A study of Mus musculus with 12 samples.

Results

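The genes described here encode proteins that carry zinc, manganese, iron and copper across membranes, store these metals or sense them. They were chosen by name from a list of 38 symbols, and 36 of them matched a probe on the arrays: 19 zinc genes, 3 manganese genes, 10 iron genes and 4 copper genes, out of 23747 genes tested. Slc30a2 and Slc39a9 were not analysed here. The probe that stood for each gene was selected on its measured brightness, so levels are given as a description, and only differences between groups were tested. All 36 genes passed the filter on dim probes.

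The RNA came from scraped colon mucosa of C57BL/6 mice that carried transplanted bone marrow. Every recipient was WT, and the donor was either WT (WT marrow) or Muc1 KO (KO marrow), so the recipient's own cells, the epithelium included, were WT for Muc1 in all 4 groups. Each kind of chimera was left untreated or given the carcinogen azoxymethane (AOM) and the colitis-inducing polymer dextran sulfate sodium (DSS), with 3 mice in each group. Treated mice received 12.5 mg/kg AOM and, 5 days later, drank 2% DSS for 4 days and plain water for 14 days. That cycle was given again, a last course of 2.5% DSS ran for 5 days, and the colon was taken 1 day after it. The share of blood cells that came from the donor, and the age of the mice, were not given in the sources used here.

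Each mouse had its own single-colour array, so precision was limited by 3 arrays a group. The arrays lay on 3 slides of 4 arrays: slide 1 held the 3 untreated WT-marrow arrays and untreated KO-marrow replicate 1, slide 2 held untreated KO-marrow replicates 2 and 3 and replicate 3 of both treated groups, and slide 3 held replicates 1 and 2 of both treated groups. Untreated and treated WT-marrow mice thus shared no slide. Slide 3 was scanned on the earlier of 2 scan days, and slides 1 and 2 on the later. Spots flagged as non-uniform, which were left out, numbered 491 to 767 on the arrays of slide 3 and 4 to 51 on the others. The 75th percentile of the processed signal lay between 332 and 767.8 on 11 arrays and was 153.2 on treated WT-marrow replicate 3. All 7 epithelial markers (Epcam, Cdh1 and others) were above background on all 12 arrays. Muc1 itself lay between -3.80 and -0.99 over the 12 arrays and passed the threshold in no comparison, and in tissue whose own cells are WT it does not check the donor labels.

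Zinc is moved by opposed families: SLC39 (ZIP) proteins bring it into the cytosol, and SLC30 (ZnT) proteins take it out or into vesicles. Metallothioneins bind the excess, and a zinc-sensing factor, MTF1, switches on their genes and that of the exporter Slc30a1 through a short promoter motif, the metal response element. In the gut, SLC39A4 takes up dietary zinc, SLC11A2 and ferroportin (Slc40a1) carry iron in and out, and SLC39A8, SLC39A14 and SLC30A10 set manganese levels. Ceruloplasmin (Cp) and hephaestin are copper oxidases that load exported iron onto transferrin, and ATP7A and ATP7B pump copper. During inflammation, phagocytes withhold metals from microbes, using among others the metal exporter SLC11A1 (NRAMP1) of the phagosome.

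The promoter sequences of the 2 metallothioneins, the best known targets of MTF1, are shown with those of Slc30a1 and Slc30a10, 2 zinc and manganese exporters called lower with treatment in at least 1 kind of chimera. Each line runs 5′ to 3′ from 250 bases before to 30 bases after the transcription start that RefSeq annotates (GRCm38.p6). Capitals mark the metal response element core, TGCACNC or TGCGCNC, searched on both strands with overlapping matches counted as 1.
Mt1, chr8:94178839-94179118, + strand: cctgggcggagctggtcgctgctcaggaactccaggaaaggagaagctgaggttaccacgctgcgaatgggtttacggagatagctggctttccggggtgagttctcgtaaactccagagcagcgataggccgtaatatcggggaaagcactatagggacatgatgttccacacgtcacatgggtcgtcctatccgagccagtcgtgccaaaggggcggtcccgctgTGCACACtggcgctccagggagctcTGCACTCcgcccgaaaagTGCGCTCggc
Mt2, chr8:94172368-94172647, + strand: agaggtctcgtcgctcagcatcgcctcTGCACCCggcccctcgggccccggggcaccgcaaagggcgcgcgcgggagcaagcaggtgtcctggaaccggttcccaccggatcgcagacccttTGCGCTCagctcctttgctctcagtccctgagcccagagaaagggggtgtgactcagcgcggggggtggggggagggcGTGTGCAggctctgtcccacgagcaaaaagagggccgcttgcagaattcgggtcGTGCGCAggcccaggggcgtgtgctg
Slc30a1, chr1:191906531-191906810, + strand: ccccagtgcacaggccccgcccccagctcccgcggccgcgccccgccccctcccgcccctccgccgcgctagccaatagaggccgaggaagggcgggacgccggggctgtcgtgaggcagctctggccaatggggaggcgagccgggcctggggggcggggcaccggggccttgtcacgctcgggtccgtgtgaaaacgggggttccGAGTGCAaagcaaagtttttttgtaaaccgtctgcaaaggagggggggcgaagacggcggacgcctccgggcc
Slc30a10, chr1:185454598-185454877, + strand: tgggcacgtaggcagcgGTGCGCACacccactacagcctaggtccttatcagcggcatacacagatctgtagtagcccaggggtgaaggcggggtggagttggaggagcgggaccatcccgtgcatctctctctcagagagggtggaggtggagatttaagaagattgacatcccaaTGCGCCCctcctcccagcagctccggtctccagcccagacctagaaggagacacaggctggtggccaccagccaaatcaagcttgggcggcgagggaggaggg
The core occurred 3 times in the Mt1 window, 4 times in Mt2, 1 time in Slc30a1 and 2 times in Slc30a10. Of all 32851 promoter windows of the same 280 bases, 24.1% held at least 1 match and 1.13% held at least 3. Of the 38 listed names, 31 had a window, and 17 of those 31 held a match in at least 1 of their windows. Counted by window, as for all promoters, 18 of their 39 windows held a match. A match is a description of the letters and not a measured binding site.

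Levels are given as log2 of the processed signal relative to the 75th percentile of that array, so that 0 is as bright as the probe at that percentile and 1 unit is a factor of 2. Levels of different genes come from different probes and are not compared. A gene was called changed at an adjusted p under 0.05 from limma, adjusted by the Benjamini-Hochberg method over all 23747 genes. Probes with no RefSeq match are counted among these genes under their own names.

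With AOM and DSS, 4 of the 36 metal genes fell and none rose in mice with WT marrow: the zinc and manganese transporters Slc30a1, Slc39a2 and Slc30a10 and the copper pump Atp7b. In mice with KO marrow, Slc30a10 fell and Cp rose. Those counts are 11.1% and 5.56% of the members, beside 13.8% and 3.15% of all genes. By direction, 3.61% of all genes rose and 10.2% fell with WT marrow, and 1.85% rose and 1.31% fell with KO marrow. The median change of the 36 genes was -0.29 with either marrow, beside -0.24 (WT marrow) and -0.11 (KO marrow) over all genes. Under quantile normalization 39.8% of the genes called with WT marrow were higher, compared with 26.2% under the scaling used here, and the median of all genes moved from -0.24 to -0.04.

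**Figure D1:**
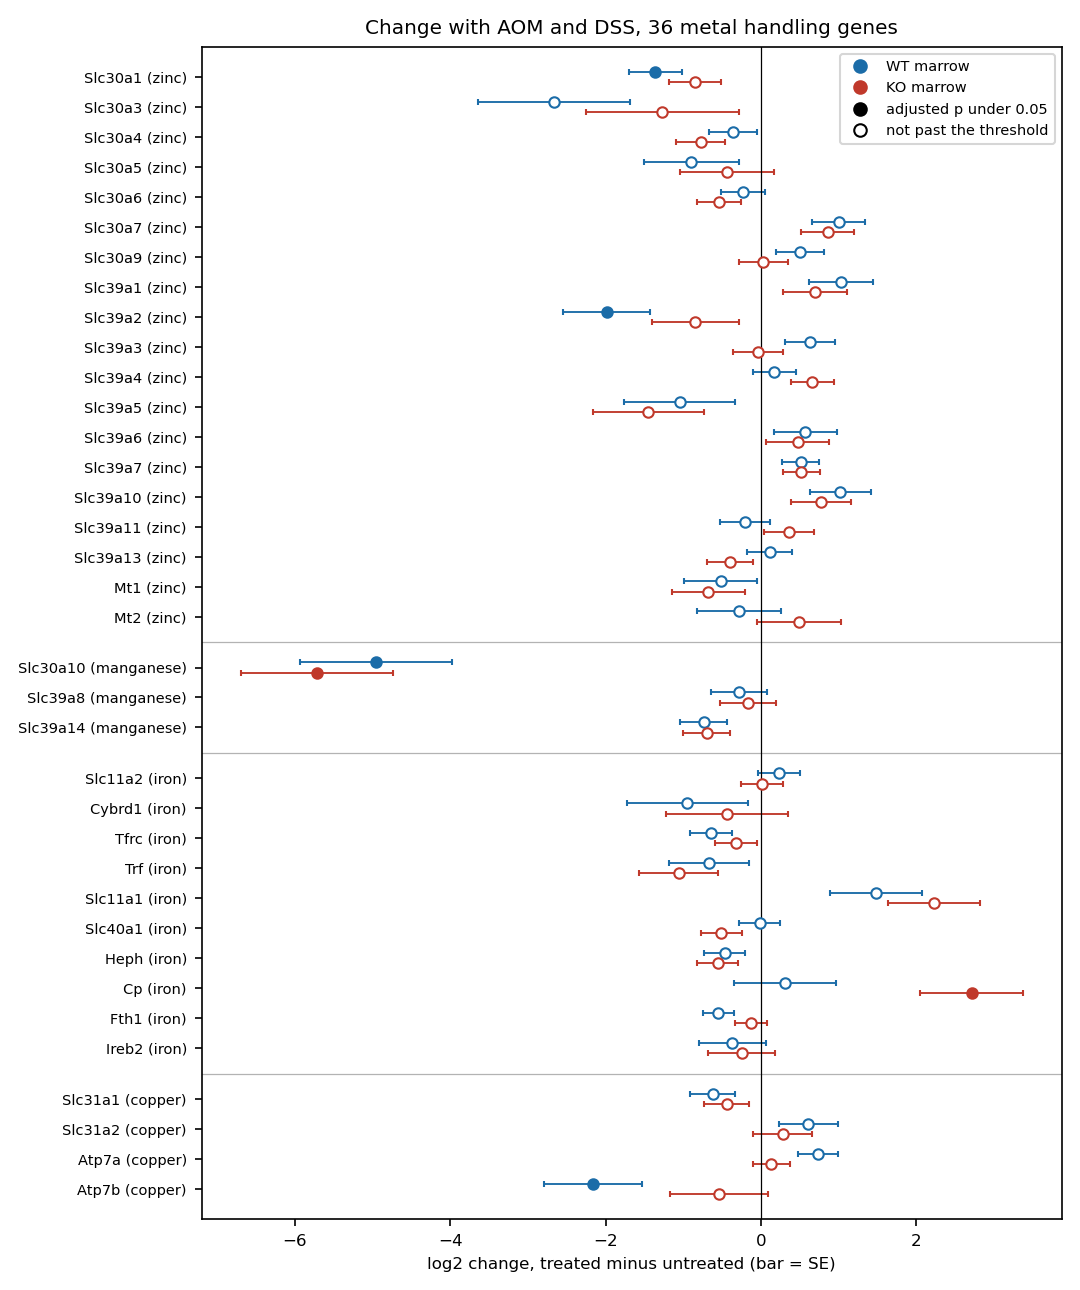
Change of 36 metal handling genes with AOM and DSS, as the log2 difference between treated and untreated mice on the horizontal axis, with 1 row a gene, blue for WT marrow, red for KO marrow, bars for the SE and filled points for an adjusted p under 0.05. Slc30a10 stood farthest to the left with both marrows (-4.96 and -5.72), and most other members lay within a few units of 0.

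The slide was recorded as a batch that partly ran with treatment, and it moved the calls. When it was fitted as a block, 0.535% of all genes were called with WT marrow and 7.26% with KO marrow. Among the metal genes, Slc11a1 alone was then called with WT marrow, and Slc11a1, Cp, Slc30a10 and Slc39a5 were called with KO marrow. The estimate with WT marrow then runs through the KO-marrow arrays that connect the slides, since the WT-marrow groups shared no slide. Within slide 2, treated KO-marrow replicate 3 could be set against untreated replicates 2 and 3, with the spread pooled over all arrays and the lone treated array assumed to vary like the rest.

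Slc30a10, a manganese exporter of the plasma membrane, was lower in treated mice of both kinds than in any untreated mouse. Untreated WT-marrow arrays read -3.29, -3.55 and -0.94, and treated ones -8.82, -7.30 and -6.54. Untreated KO-marrow arrays read 0.14, -0.40 and -1.23, and treated ones -6.26, -8.11 and -4.27. The highest treated value (-4.27) lay below the lowest untreated value (-3.55), so the 6 treated and 6 untreated arrays did not overlap. The log2 change was -4.96 ± 0.98 (SE; adjusted p from limma 0.0121) with WT marrow and -5.72 ± 0.98 (adjusted p 0.00654) with KO marrow. No treated WT-marrow array and 1 of 3 treated KO-marrow arrays was well above background at this probe, so the fall with WT marrow is given as at least 12.9-fold. The fitted sizes rest mostly on dim treated signals with either marrow, and the gene passed the filter through the untreated groups, where it is high. This bound sets the mean of the untreated arrays against the lowest signal well above background, or the probe's own signal where that was higher, on each treated array.

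A second Slc30a10 probe, dimmer and well above background on 9 of 12 arrays, changed by -3.53 with WT marrow and -4.24 with KO marrow. Its untreated values ran from -4.60 to -1.52 and its treated values from -8.75 to -4.78, so the groups did not overlap there either. In the authors' deposited table, which lists 2506 probes with group values, both probes are present, with treated minus untreated values of -4.94 and -3.51 (WT marrow) and -5.70 and -4.23 (KO marrow). With the slide as a block the change was -3.92 (adjusted p from limma 0.0404) with KO marrow and -2.52 (adjusted p 0.382) with WT marrow, and within slide 2 it was -3.45 (adjusted p 0.118). Under normexp background correction, which raises all dim signals by an offset, the calls ended, at 0.08 (adjusted p 0.928) with WT marrow and -1.96 (adjusted p 0.0845) with KO marrow. Without treated WT-marrow replicate 1 the change with WT marrow was -4.32 (adjusted p 0.057), while the call with KO marrow held when any single array was left out (adjusted p 0.00342 to 0.037).

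Markers of absorptive colonocytes, the cells of the surface epithelium, moved the same way. Of 10 markers (Slc26a3, Car1, Aqp8 and others), 6 fell with WT marrow and 3 with KO marrow, beside 10.2% and 1.31% of all genes, with median changes of -1.58 and -1.43. Blocked by slide, none fell with WT marrow (median -1.58), and 2 fell and 1 rose with KO marrow (median -0.75). Their summed signal, on the same log2 scale, ran from 10.13 to 10.99 in untreated WT-marrow mice and from 8.88 to 9.95 in treated ones, and from 10.20 to 10.71 and from 8.93 to 9.90 with KO marrow. Their part in the Slc30a10 result was not tested. In bulk mucosa, fewer cells of a type and less RNA in each cell cannot be told apart.

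The manganese importers moved far less. Slc39a14, an importer of manganese, zinc and iron, averaged 0 ± 0.29 (SD, n = 3) and -0.74 ± 0.06 in untreated and treated WT-marrow mice, and -0.13 ± 0.46 and -0.83 ± 0.21 with KO marrow. All 6 treated arrays lay below all 6 untreated ones, but the changes of -0.74 and -0.70 did not pass (adjusted p from limma 0.106 and 0.292), and a second, dimmer probe gave 0.01 and -0.13. With the slide as a block, the brighter Slc39a14 probe changed by 0.16 with WT marrow and -0.31 with KO marrow. Under normexp background correction the changes of Slc39a14 were 0.01 and -0.48. Slc39a8, a zinc and manganese importer, averaged 0.91 ± 0.23 and 0.62 ± 0.79 with WT marrow and 0.97 ± 0.30 and 0.80 ± 0.37 with KO marrow (SD, n = 3), and its values overlapped. The changes of Slc39a8 were -0.29 ± 0.36 and -0.17 ± 0.36 (SE).

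The iron genes with the largest positive values were Slc11a1, which pumps metals out of the phagosome, and Cp, a ferroxidase. Slc11a1 read -3.42, -3.86 and -3.95 in untreated and -2.42, -2.36 and -2.02 in treated WT-marrow mice. With KO marrow it read -3.05, -5.06 and -5.29 untreated and -2.77, -2.53 and -1.42 treated. Every treated array was above every untreated one. Its changes of 1.48 ± 0.59 and 2.23 ± 0.59 (SE) did not pass (adjusted p from limma 0.101 and 0.0631), although both did under quantile normalization (2.16, adjusted p 0.00827, and 2.18, adjusted p 0.0152). With the slide as a random block or the scan day as a block, it passed with KO marrow only. Under normexp background correction neither change passed, at 1.28 (adjusted p 0.149) with WT marrow and 1.27 (adjusted p 0.287) with KO marrow. Blocked by slide they were 4.14 (adjusted p 0.0202) and 3.47 (adjusted p 0.00201), and within slide 2 the change with KO marrow was 3.76 (adjusted p 0.00343).

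Among untreated KO-marrow mice, the array on slide 1 (-3.05) read 2.12 above the mean of the 2 on slide 2, where slide and mouse cannot be told apart. Cell type markers of phagocytes were higher in the same treated mice. Of 10 measured macrophage markers, 7 rose with WT marrow and 6 with KO marrow, and of 7 measured neutrophil markers 6 rose with either, beside 3.61% and 1.85% of all genes. Cd68 of the macrophage list and Ly6g, Ngp and Camp of the neutrophil list were not measured. Blocked by slide, 1 macrophage and 3 neutrophil markers rose with WT marrow and 6 and 7 with KO marrow. The summed macrophage signal ran from 3.55 to 5.24 untreated and from 5.46 to 6.25 treated with WT marrow, and from 3.41 to 4.28 and from 5.66 to 6.09 with KO marrow. For neutrophils the ranges were -2.98 to -1.18 and 5.61 to 6.96 with WT marrow, and -2.84 to -2.43 and 3.45 to 5.74 with KO marrow. On all 12 arrays, 9 macrophage markers but 1 neutrophil marker were well above background. The other neutrophil markers could pass the filter on dim probes through the treated groups, where most were higher. A rise was thus favoured in advance, and the neutrophil counts are given as a description. Whether macrophages or neutrophils carried the Slc11a1 signal was not tested.

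Cp read -4.65 and -5.24 in untreated KO-marrow replicates 2 and 3 and -3.07 in replicate 1. Treated KO-marrow mice read -1.67, -2.32 and -0.83, all above the untreated ones. WT-marrow mice read -2.40, -1.86 and -3.12 untreated and -3.29, -1.37 and -1.78 treated, and these overlapped. The change was 2.71 ± 0.66 (SE; adjusted p from limma 0.0438) with KO marrow, a 6.55-fold rise, and 0.31 ± 0.66 (adjusted p 0.771) with WT marrow. Blocked by slide it was 3.91 (adjusted p 0.00823) and 2.76 (adjusted p 0.198), and within slide 2 it was 4.11 (adjusted p 0.021) with KO marrow. Set against each other, the changes with KO and WT marrow differed by 2.40 ± 0.93, which did not pass (adjusted p 0.897). Leaving out 1 array ended the call in 8 of 12 cases, with changes from 2.25 to 3.34 and adjusted p from 0.0196 to 0.215, and normexp background correction gave 1.51 (adjusted p 0.15).

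**Figure D2:**
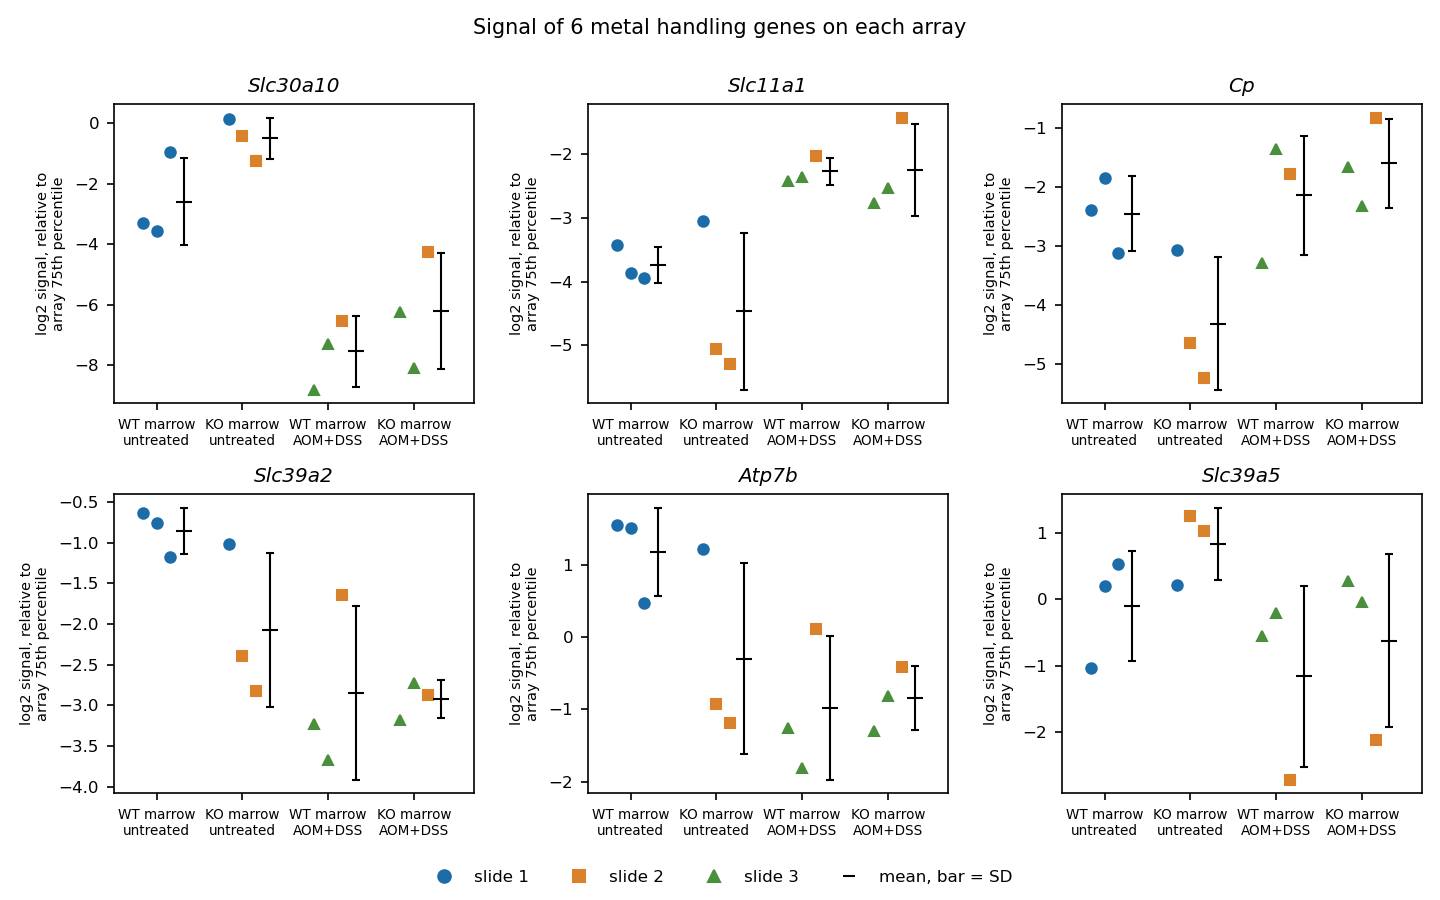
Log2 signal relative to the array 75th percentile on the vertical axis for Slc30a10, Slc11a1, Cp, Slc39a2, Atp7b and Slc39a5 in the 4 groups, with 1 point an array, shape and colour for the slide, and the mean with its SD beside the points. Slc30a10 and Slc11a1 separated all treated from all untreated arrays, whereas Atp7b and Slc39a2 in untreated KO-marrow mice were high on slide 1 and low on slide 2.

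The main iron carriers of the enterocyte passed in neither marrow. Slc40a1, the only known cellular iron exporter, averaged 4.62 ± 0.51 and 4.59 ± 0.13 in untreated and treated WT-marrow mice and 4.98 ± 0.28 and 4.47 ± 0.14 with KO marrow (SD, n = 3). Its change was -0.02 ± 0.26 with WT marrow and -0.51 ± 0.26 (SE; adjusted p from limma 0.409) with KO marrow, where the treated arrays all lay below the untreated ones. Slc11a2 (DMT1), the apical iron importer, averaged 1.95 ± 0.37 and 2.17 ± 0.35 with WT marrow and 2.24 ± 0.37 and 2.24 ± 0.02 with KO marrow. Those groups overlapped. A dimmer Slc11a2 probe changed by -2.05 with WT marrow and -0.51 with KO marrow, against 0.23 and 0.01 at the brighter one, so the direction at this gene depended on the probe.

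Tfrc, the transferrin receptor, averaged 2.53 ± 0.34 and 1.87 ± 0.16 with WT marrow and 2.20 ± 0.25 and 1.88 ± 0.43 with KO marrow (SD, n = 3). Fth1, the heavy chain of the iron store ferritin, averaged 8.74 ± 0.06 and 8.19 ± 0.09 with WT marrow and 8.71 ± 0.06 and 8.58 ± 0.14 with KO marrow. In WT-marrow mice both genes were lower on every treated array than on any untreated one. Their changes there, -0.65 ± 0.27 and -0.55 ± 0.20 (SE), did not pass (adjusted p from limma 0.11 and 0.0809), although Fth1 did without treated WT-marrow replicate 3 (-0.61, adjusted p 0.0331). Blocked by slide, Tfrc changed by -0.03 (adjusted p 0.977) and Fth1 by -0.46 (adjusted p 0.537) with WT marrow. Under quantile normalization these changes were -0.75 (adjusted p 0.066) and -0.02 (adjusted p 0.956). The ferroxidase Heph, lower on all treated arrays with WT marrow (-0.47), the transferrin gene Trf (-0.67 and -1.06), the ferric reductase Cybrd1 (-0.95 and -0.44) and the iron sensor Ireb2 (-0.37 and -0.25) did not pass either. Over the 10 iron genes the median change was -0.42 with WT marrow and -0.29 with KO marrow, with 3 positive and 7 negative in each.

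Of the 7 measured Slc30a genes grouped here as zinc exporters, Slc30a1 fell with WT marrow and none was called with KO marrow. Slc30a1, the exporter of the plasma membrane, read 2.92, 2.40 and 1.55 untreated and 0.72, 0.99 and 1.09 treated with WT marrow. With KO marrow it read 2.25, 1.73 and 2.05 untreated and 0.99, 0.81 and 1.68 treated. Treated arrays lay below untreated ones within each marrow. The change was -1.36 ± 0.34 (SE; adjusted p from limma 0.0265) with WT marrow, a 2.57-fold fall, and -0.85 ± 0.34 (adjusted p 0.258) with KO marrow.

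That fall was not seen at the second Slc30a1 probe, which was above background on all 12 arrays and changed by 0.37 with WT marrow and -0.02 with KO marrow. With the mean of both probes the change with WT marrow was -0.50 (adjusted p from limma 0.271). With the slide as a block it was -0.66 (adjusted p 0.574), and it passed in 8 of the 12 fits without 1 array: those without untreated WT-marrow replicate 1 or 2 or treated WT-marrow replicate 1 or 2 gave adjusted p from 0.0577 to 0.113.

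Most of the other genes grouped as exporters load zinc into compartments. Slc30a7, which fills the Golgi, was higher on every treated array within each marrow (1 ± 0.34 and 0.86 ± 0.34, SE) without passing (adjusted p from limma 0.0639 and 0.246). Slc30a3, which loads synaptic-type vesicles, was well above background on all 6 untreated arrays and on none of the 6 treated ones. Its values overlapped between treated and untreated arrays with either marrow, and its fitted changes of -2.67 and -1.27 did not pass (adjusted p 0.0813 and 0.63). Under normexp background correction they turned to 1.27 (adjusted p 0.311) and 0.40 (adjusted p 0.882), while without treated WT-marrow replicate 3, the dim array, the change with WT marrow was -3.85 (adjusted p 0.00509). Slc30a4, Slc30a5, Slc30a6 and Slc30a9 changed by -0.90 to 0.50 with WT marrow and by -0.78 to 0.03 with KO marrow. Slc30a5 was low on treated WT-marrow replicate 3, the dim array, at -1.18 beside 1.72 and 2.03 on the other treated arrays.

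Of the 10 measured Slc39a genes in the zinc group, Slc39a2 fell with WT marrow and none rose. Slc39a2, a plasma membrane importer, read -0.63, -0.75 and -1.17 untreated and -3.23, -3.67 and -1.64 treated with WT marrow. With KO marrow it read -1.01, -2.39 and -2.82 untreated and -3.18, -2.72 and -2.87 treated. The WT-marrow groups did not overlap, and the KO-marrow groups did. The change was -1.99 ± 0.56 (SE; adjusted p from limma 0.0367) with WT marrow and -0.85 ± 0.56 (adjusted p 0.555) with KO marrow. On slide 2 alone, the 2 untreated and 1 treated KO-marrow arrays differed by -0.26, and with the slide as a block the change with WT marrow was 0.23 (adjusted p 0.888). It ended as a call in 7 of the 12 fits without 1 array (changes from -2.60 to -1.58, adjusted p from 0.00354 to 0.127).

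Slc39a4, the importer of dietary zinc whose loss causes acrodermatitis enteropathica, averaged 7.36 ± 0.59 and 7.53 ± 0.03 in untreated and treated WT-marrow mice and 7.03 ± 0.24 and 7.69 ± 0.09 with KO marrow (SD, n = 3). With KO marrow all treated arrays lay above the untreated ones, at a change of 0.66 ± 0.28 (SE) that did not pass (adjusted p from limma 0.286). Slc39a5, a basolateral importer, read -1.04, 0.19 and 0.53 untreated and -0.55, -0.21 and -2.72 treated with WT marrow, and 0.21, 1.25 and 1.03 untreated and 0.28, -0.04 and -2.12 treated with KO marrow. Both treated replicates 3, on slide 2, were the low ones. Its changes of -1.05 and -1.45 did not pass, but with the slide as a block they were -3.50 (adjusted p 0.0558) and -3.29 (adjusted p 0.00347), and within slide 2 the change with KO marrow was -3.26 (adjusted p 0.013).

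Slc39a7, which releases zinc from the endoplasmic reticulum, was higher on all treated than on all untreated arrays (4.91 to 5.28 untreated, 5.33 to 5.83 treated), with no value on replicate 2 of either treated group. Slc39a10, a plasma membrane importer, was higher on every treated array within each marrow (1.02 and 0.77). Neither passed, with adjusted p from limma of 0.171 and 0.0874 with WT marrow, but Slc39a10 did there under quantile normalization (1.45, adjusted p 0.0377). The remaining importers, Slc39a1, Slc39a3, Slc39a6, Slc39a11 and Slc39a13, changed by -0.21 to 1.03 with WT marrow and by -0.40 to 0.69 with KO marrow. Over the 10 zinc importers the median change was 0.34 with WT marrow and 0.42 with KO marrow, and over the 7 exporters it was -0.36 and -0.54. Over all genes it was -0.24 and -0.11, and the difference between the families was not tested. Second probes of Slc30a1, Slc30a5 and Slc30a9 changed by 0.37, 0.48 and -0.04 with WT marrow, against -1.36, -0.90 and 0.50 at the brighter ones. A second Slc39a13 probe changed by -1.84 and -1.08, against 0.11 and -0.40 at the brighter one; it is the one that the authors' deposited table lists, at -1.82 and -1.06.

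The metallothioneins Mt1 and Mt2, whose windows around the start hold the 3 and 4 motif matches shown above, did not pass in any of the 5 comparisons of the fit without a block. Mt1 averaged 3.34 ± 0.57 and 2.82 ± 1.08 in untreated and treated WT-marrow mice and 3.44 ± 0.31 and 2.76 ± 0.46 with KO marrow (SD, n = 3). Mt2 averaged 4.43 ± 0.32 and 4.14 ± 1.11 with WT marrow and 3.87 ± 0.50 and 4.36 ± 1.00 with KO marrow. The groups overlapped at both genes. Among treated mice Mt2 was 1.64 (WT marrow) and 1.68 (KO marrow) lower on slide 3 than on slide 2, and with the slide as a block its changes were 0.57 (adjusted p from limma 0.656) and 1.51 (adjusted p 0.0593). With the scan day as a block, Mt2 passed with KO marrow (1.59, adjusted p 0.0357).

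**Figure D3:**
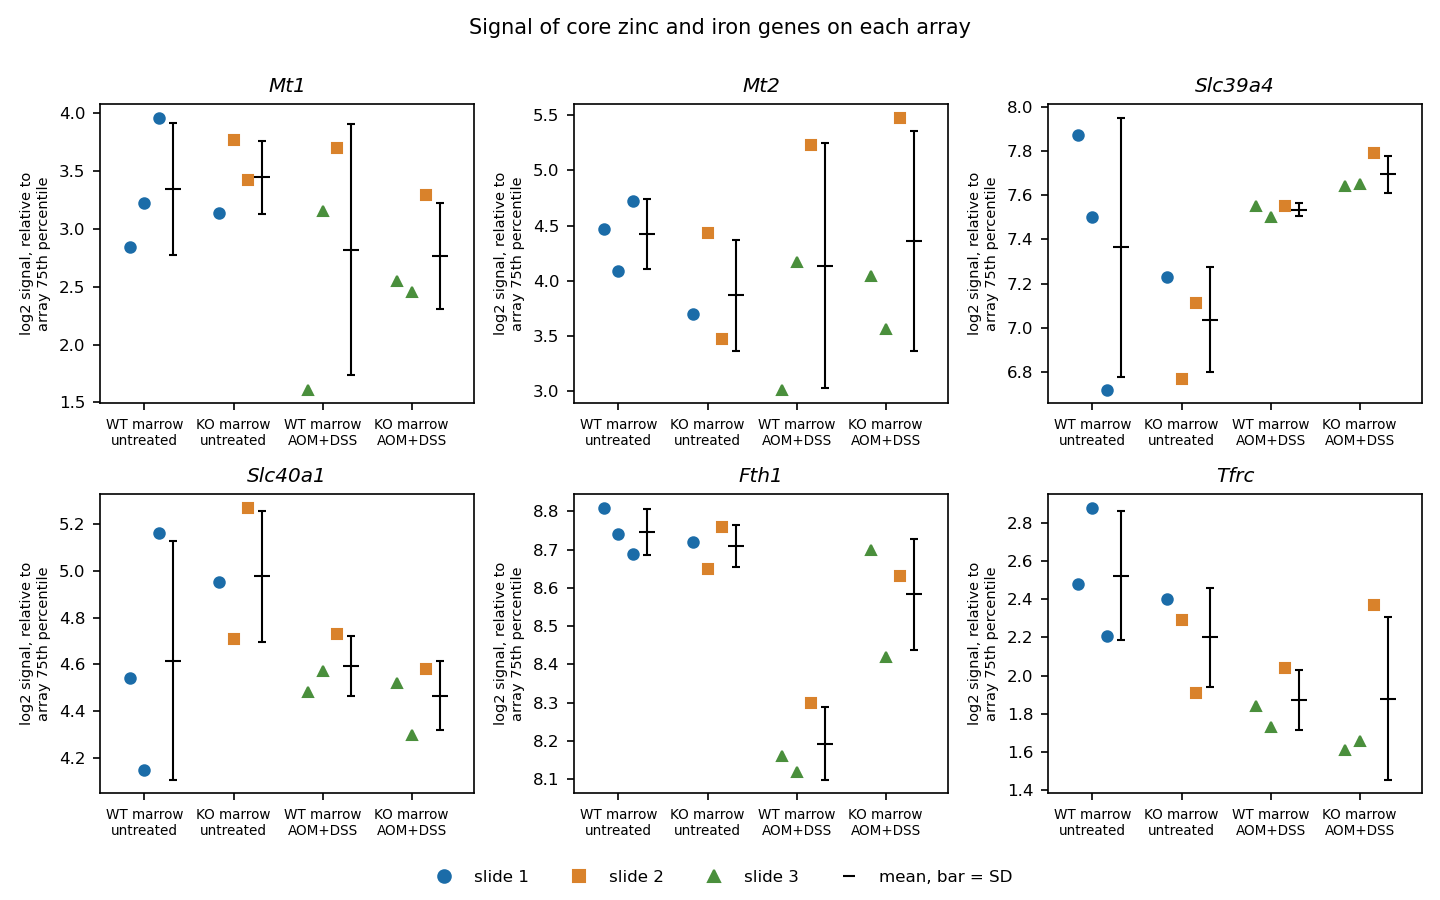
Log2 signal relative to the array 75th percentile on the vertical axis for Mt1, Mt2, Slc39a4, Slc40a1, Fth1 and Tfrc in the 4 groups, with 1 point an array, shape and colour for the slide, and the mean with its SD. None of these genes passed the threshold in the fit of all 12 arrays without a block, and Fth1 in WT-marrow mice held separate ranges, 8.69 to 8.81 untreated and 8.12 to 8.30 treated. Under quantile normalization the Fth1 change with WT marrow was -0.02.

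Among the copper genes, Atp7b, a pump that exports copper or loads it into secreted ceruloplasmin, fell with WT marrow. It read 1.56, 1.51 and 0.47 untreated and -1.25, -1.81 and 0.12 treated there. With KO marrow it read 1.22, -0.93 and -1.19 untreated and -1.30, -0.82 and -0.41 treated, so those groups overlapped. The change was -2.16 ± 0.63 (SE; adjusted p from limma 0.04) with WT marrow and -0.54 ± 0.63 (adjusted p 0.765) with KO marrow. The untreated KO-marrow array on slide 1 stood 2.28 above the 2 on slide 2, and with the slide as a block the change with WT marrow was 0.89 (adjusted p 0.502). Leaving out 1 array ended the call in 7 of 12 cases, with changes from -2.71 to -1.74 and adjusted p from 0.00642 to 0.137.

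The related pump Atp7a, which passes copper across the basolateral membrane, was higher on the treated WT-marrow arrays with a value (0.73 ± 0.26, SE; adjusted p from limma 0.0787; replicate 2 had none) and changed by 0.13 ± 0.24 with KO marrow. The copper importers Slc31a1 (-0.62 and -0.44) and Slc31a2 (0.61 and 0.28) did not pass. The brighter and dimmer Slc31a1 probes differed in sign with WT marrow, at -0.62 and 0.60.

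**Figure D4:**
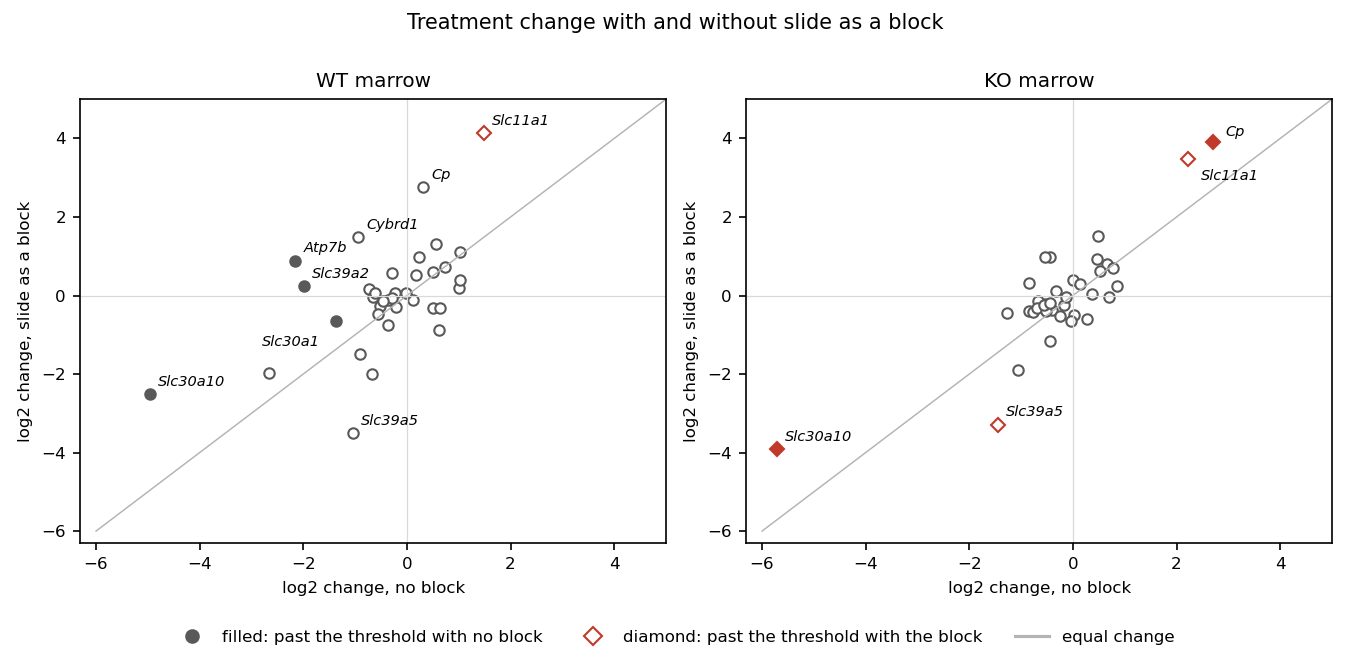
Change with treatment of the 36 genes without a block (horizontal axis, log2) against the change with the slide as a block (vertical axis, log2), WT marrow on the left and KO marrow on the right, with the grey line for equal changes. Atp7b and Slc39a2 with WT marrow moved from -2.16 and -1.99 to 0.89 and 0.23, and Slc11a1 moved away from 0 with both marrows.

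Without regard to the threshold, the treated and untreated arrays did not overlap at 14 of the 36 genes with WT marrow and at 13 with KO marrow, beside 33.1% and 23.6% of all genes. Over both marrows, 6 treated against 6 untreated arrays, 4 genes did not overlap, beside 8.18% of all genes: Slc39a7 and Slc11a1 were higher and Slc30a10 and Slc39a14 lower. For Slc39a7, replicate 2 of either treated group had no value. The changes had the same sign with both marrows at 32 of 36 genes (88.9%, 12 higher and 20 lower), compared with 77.7% of all genes. The treated groups had the same slide layout, so the changes with the 2 marrows were not independent of slide.

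For 11 of the genes a second probe passed the filter. The probes gave changes of the same sign at 4 of 11 genes with WT marrow and at 10 of 11 with KO marrow. Among the genes called, Slc30a10 had the same direction at both probes with both marrows, and Slc30a1 did not with WT marrow.

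**Figure D5:**
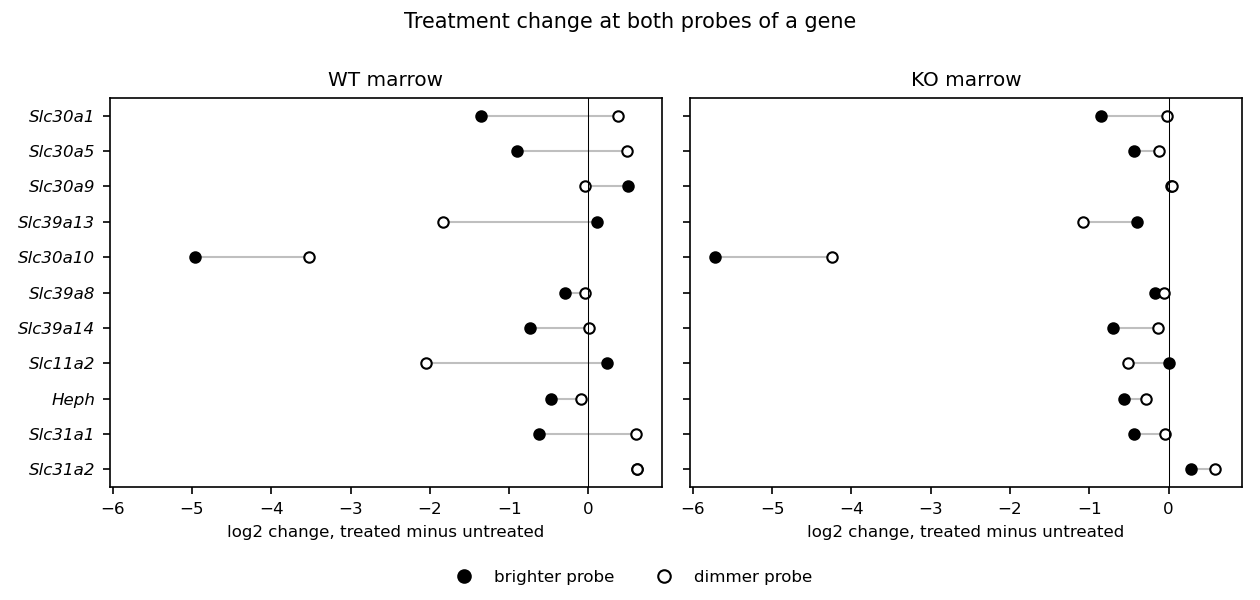
Log2 change with treatment (horizontal axis) at the brighter (filled) and dimmer (open) probe of the 11 genes with 2 probes kept, WT marrow on the left and KO marrow on the right. Slc30a10 was low at both probes, and the widest gaps were those of Slc11a2 and Slc39a13 with WT marrow, where the dimmer probes gave -2.05 and -1.84.

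No metal gene and no other gene passed between KO and WT marrow in treated mice, in untreated mice or in the size of the treatment change (0 of 23747 genes, 0%, in each of these limma comparisons). At an unadjusted p under 0.05 there were 231, 2911 and 829 genes, among them 0, 3 and 1 metal genes. The 3 in untreated mice were Slc39a2 (-1.22), Cp (-1.86) and Atp7b (-1.48), all lower with KO marrow, and the 1 in the treatment change was Cp. On slide 1, which holds 1 untreated KO-marrow array and 3 WT-marrow arrays, these differences were -0.16, -0.61 and 0.04. Without that KO-marrow array, replicate 1, 1666 genes passed in untreated mice, Cp and Atp7b among them, and the KO-marrow arrays left all lie on slide 2 and the WT-marrow ones on slide 1, so that slide and marrow cannot be told apart there. Slc30a10 was 2.10 ± 0.98 (SE) higher with KO marrow in untreated mice (adjusted p 0.408) and 2.74 higher on slide 1.

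Of 54 other genes of metal handling, 48 were measured. With WT marrow 9 rose and 2 fell, beside 3.61% and 10.2% of all genes, and with KO marrow 8 rose and none fell, beside 1.85% and 1.31%. The medians over the 48 genes were 0.03 and -0.13, beside -0.24 and -0.11 over all genes. Blocked by slide, 1 and 6 rose and none fell. Among those that rose were S100a8 (9.57 with WT marrow and 8.31 with KO marrow) and S100a9 (8.37 and 7.94), the subunits of calprotectin, a neutrophil protein that binds zinc and manganese. In untreated mice, the S100a8 probe exceeded background clearly on 1 array of 3 with either marrow, so its size rests mostly on dim untreated signals. Both are also on the neutrophil marker list. Genes of iron and haem capture rose too, namely haptoglobin Hp (5.29 and 5.74), lactoferrin Ltf (4.50 and 4.27) and the siderophore binder Lcn2. No untreated array showed Lcn2 well above background, and it was at least 5.52-fold and 5.70-fold higher. Untreated Hp values were uneven, from -5.46 to 0.19 with WT marrow and from -5.50 to -1.92 with KO marrow. Treated Ltf values were 3.11 and 2.80 on replicates 2 and -0.36 to -0.10 on the other arrays.

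Arg1, a manganese enzyme of activated macrophages, rose by 4.24 and 5.23, with 2 of 3 untreated WT-marrow arrays and 1 of 3 untreated KO-marrow arrays well above background. S100a8, Lcn2 and Arg1 passed the filter on dim probes only through the treated groups, where they are high, so their place among the genes that rose is a description. Steap4, a metal reductase, rose by 3.04 and 2.99. Hpx, the haem carrier hemopexin, fell by 2.76 with WT marrow (adjusted p from limma 0.0313), and by 0.23 with the slide as a block, where it did not pass (adjusted p 0.918). Blocked by slide, S100a9 passed with both marrows, S100a8, Arg1, Hp and Lcn2 with KO marrow, and Steap4 and Ltf with neither.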

How the data were processed

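Mouse colon mucosa RNA was labelled with Cy3 and hybridised to 12 single-colour Agilent arrays. The deposited scanner files hold probe intensity values that, per the file headers, the authors obtained with Agilent's Feature Extraction software, version 10.7.3.1; these were already background-subtracted. The authors also deposited a table of log2 group values, in which each group's value tracks the log2 group mean minus the probe median computed here (Pearson r over probes 0.995 to 0.998; probes are not independent replicates). The headers name the array design's build as mm8, so coordinates are printed only with the RefSeq promoter table.

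From the scanner files, processed signals were averaged per probe, control spots and outlier spots were left out, and log2 values were set against each array's 75th percentile. Of 41174 probes, 30219 were well above background on every array of at least 1 group, and a gene was read at its brightest probe. Probes were named through RefSeq accessions, and a probe without a match was kept under its systematic name. The 23747 entries called genes here, over which all shares were taken, include such probes. Group means were fitted in limma 3.58.1 (R 4.3.3) over all 12 arrays with an intensity trend, with Benjamini-Hochberg adjustment of p over all genes. The steps were tested on simulated data. Alternatives were quantile normalization, normexp background correction (on gMedianSignal, in place of gMeanSignal as first planned), no filter, the mean of a gene's probes, slide or scan day as a block, the replicate number as a block, only the compared groups, no intensity trend, and each array left out.

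Members, lists and tests were chosen with earlier results of these data known. Members called in any comparison are given on every array; Slc39a8, Slc39a14, Slc40a1, Slc11a2, Tfrc, Fth1, Mt1, Mt2 and Slc39a4 by group means whether or not they passed; the rest by counts and ranges; and the 8 other metal genes with the largest change among those called are named. Slc11a1 and Slc39a5 were added to those given on every array after their values were seen. Deviations of same-numbered arrays correlated at 0.417, 0.307 and 0.512 between the treated groups, where the numbers coincide with slides, and at -0.384 to 0.424 in the other pairs of groups. p-values measure the spread between arrays of a group, each from a different mouse. In the fit without a block, this spread mixes mouse and slide in every group but untreated WT marrow.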

Additional observations from a re-analysis of the deposited data

How the results depend on the processing

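The main counts were 4 metal genes called with WT marrow and 2 with KO marrow, beside 3279 and 749 of all 23747 genes. They became 2 and 0 under normexp background correction, where 855 and 567 of all genes were called. With the slide as a block they were 1 and 4 (127 and 1725 of all genes), and as a random block 0 and 4 (177 and 916). With the scan day as a block they were 2 and 5 (2375 and 1295 of all genes). With the replicate block they were 2 and 1 (2329 and 714 of all genes). Slc39a2 (adjusted p from limma 0.0565), Atp7b (0.0595) and Cp (0.0814) were lost, and the replicate block changed no call between the marrows. With only the compared groups in the fit 1 was called with WT marrow (1326 of all genes). Without the intensity trend 1 was called with KO marrow (568 of all genes). Quantile normalization (6 and 3), no filter (4 and 2) and the mean of a gene's probes (3 and 2) stayed within 1.5 times. All genes called there numbered 4380 and 852, 2791 and 657 (of 32970), and 3135 and 710. Within slide 2 each treated group had 1 array, 1 of them the dim array. Slc30a5 read 3.22 higher with KO marrow there, and many genes outside the metal list differed too. When each array was left out in turn, the count ran from 0 to 11 with WT marrow, from 1 to 3 with KO marrow and from 0 to 2 between untreated marrows, and it was 0 between treated marrows and for the marrow difference in the treatment change. The 11 came without treated WT-marrow replicate 3, the dim array, when 7607 genes passed. Slc30a3, Slc30a7, Slc30a9, Slc39a1, Slc39a10, Fth1 and Slc31a2 then joined the other 4. The 0 came without treated WT-marrow replicate 1, when 502 genes passed. Without untreated WT-marrow replicate 1 or 2, or treated WT-marrow replicate 2, 1 metal gene was left with WT marrow. All genes called in these fits numbered 487, 523 and 1279.

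Called values changed sign at Slc39a2 (0.23) and Atp7b (0.89) with WT marrow under the slide block and at Slc30a10 (0.08) with WT marrow under normexp correction, which moved the median of all genes there from -0.24 to 0.39. The cause was not tested. Signal over background limits Slc30a10 and Slc30a3, most of whose treated arrays give only an upper bound.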
